A study of Mus musculus with 6 samples.

Results

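The genes described here are 10 mouse heat shock genes, Hspa1a, Hspa1b, Hspa8, Hsph1, Dnajb1, Hsp90aa1, Hspb1, Hspe1, Hspd1 and Hsf1, followed across all 6 arrays of the series. They were found by name: every probe whose gene name in the scanner files was one of these symbols, or an older symbol of one, was taken. That gave 18 of the 41174 probes on the array, for 9 of the 10 genes, out of 27669 gene names on the array in all. No probe carried the name Hspa1b. The Hsph1 probe is called Hsp110 in the files. As a group the genes are not all cytosolic, since Hspd1 and Hspe1 encode chaperonins of the mitochondrial matrix.

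The arrays are Agilent expression arrays with a single dye (Cy3), hybridised with RNA of the mouse embryonic stem cell line J1, with 2 arrays each for a small interfering RNA (siRNA) against Thoc2, an siRNA against Thoc5 and a non-targeting siRNA (NT). All 3 groups were J1 cells moved from ESGRO medium to M10 medium for transfection, and total RNA was taken 96 hours later. Thoc2 and Thoc5 are subunits of THO, a complex that travels with new transcripts and helps load the mRNA export machinery, and the study, by its title, concerned that role for pluripotency genes. Each siRNA group is a transient knockdown in 1 cell line, and the labels do not say whether the 2 arrays of a group came from separate cultures, so p-values measure the spread between these arrays, which may be technical. Total RNA does not separate nucleus from cytoplasm, so the values are RNA levels and not export. In such bulk samples fewer cells of a kind and less RNA per cell cannot be told apart.

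Heat shock proteins are molecular chaperones. Hsp70 proteins hold exposed stretches of unfolded polypeptide in a cycle of ATP hydrolysis that J proteins such as Dnajb1 start and exchange factors such as Hsph1 reset, Hsp90 finishes the folding of signalling proteins, and small heat shock proteins such as Hspb1 bind proteins before they aggregate. Hsf1 is the transcription factor that switches the inducible members on during stress, by binding repeats of the motif nGAAn. Hspa1a and Hspa1b have no introns, and their human counterpart is a known case of an mRNA whose export uses THOC5 together with the adaptor Aly; in fruit fly cells THO is known to be needed for efficient export of heat shock mRNA.

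What the probes can see decides what can be said of the Hsp70 genes, so the probe sequences come first. Of the 4 Hspa1a probes, 2 list accessions of both Hspa1a and Hspa1b in the files, and 2 list Hspa1a alone. All 4 lie on the minus strand of chromosome 17 of build mm7. The probe nearest the 5′ end of the gene, at chr17:33068671-33068730, and the next one, which starts 1408 bases further downstream at chr17:33067263-33067322, are the shared ones and read as follows.
A_52_P304902: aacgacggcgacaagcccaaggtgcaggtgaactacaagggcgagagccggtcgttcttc
A_52_P52803: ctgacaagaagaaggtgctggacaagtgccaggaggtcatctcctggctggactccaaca
The probes that list Hspa1a alone are A_51_P117952 and A_52_P82741, which start 1730 and 1760 bases downstream of the first. They overlap by 30 bases at chr17:33066941-33066970, shown in capitals because these bases make the pair of probes 2 readings of nearly one place.
Overlap of A_51_P117952 and A_52_P82741: AGGGAAACTAAACTGTCTTTCAGTTACTTT

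The sequence upstream of these genes was read from RefSeq windows (build GRCm38.p6) that span each gene's start and hold 300 bases, most of them upstream. Such windows were found for 7 of the 10 genes, 10 windows in all. Searched for 2 inverted units of the heat shock motif (GAANNTTC or TTCNNGAA, on both strands, overlapping matches counted), 6 of the 7 genes had a match and Dnajb1 had none, where 15.1% of all 32851 mouse windows have one. A run of 3 alternating units (GAANNTTC followed by NN and GAA, or TTCNNGAA followed by NN and TTC), which also contains matches to the shorter motif, was found for 3 genes, Hsph1, Hspe1 and Hspd1, where 0.603% of all windows have one. The run of Hsph1 lies downstream of the start, beginning 36 bases after it in 1 window and 15 in the other. A gene was counted if any of its windows matched, while the percentages are shares of single windows. Hspa1a and Hspa1b have nearly the same window, and Hspe1 and Hspd1 share the same run, so these genes are not separate finds. A match is a statement about letters in this window and not a measured site. The window of Hspe1 is printed because Hspe1 and Hspd1 lie head to head across 1 promoter region: the Hspe1 window and an Hspd1 window, read from the other strand, have 285 of 300 bases in common. It lies at chr1:55087898-55088197 on the plus strand, and the capitals mark the run of motif units that begins 89 bases before the start.
Hspe1 window: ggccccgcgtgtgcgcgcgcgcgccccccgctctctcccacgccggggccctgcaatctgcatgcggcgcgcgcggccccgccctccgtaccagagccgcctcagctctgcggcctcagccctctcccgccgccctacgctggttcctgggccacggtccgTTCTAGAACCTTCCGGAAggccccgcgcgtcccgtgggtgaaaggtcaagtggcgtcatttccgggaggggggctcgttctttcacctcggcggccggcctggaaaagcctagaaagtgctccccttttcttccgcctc
The window of Hspa1a is printed because it differs from that of Hspa1b at only 4 of 300 bases (98.7% identical). It lies at chr17:34972107-34972406 on the minus strand, with its motif pair in capitals 104 bases before the start.
Hspa1a window: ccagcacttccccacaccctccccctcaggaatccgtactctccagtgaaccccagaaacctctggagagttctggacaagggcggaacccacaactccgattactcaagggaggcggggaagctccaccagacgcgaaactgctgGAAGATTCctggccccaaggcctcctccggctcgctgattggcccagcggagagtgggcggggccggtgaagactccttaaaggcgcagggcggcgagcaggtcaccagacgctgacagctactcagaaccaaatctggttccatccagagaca

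Levels are given as the log2 processed signal of a spot minus the 75th percentile of its array, so that 0 is the brightness of a probe at that percentile. A gene is represented by its brightest usable probe. Because probes differ in how strongly they bind, a level is compared between arrays and never between genes. The 75th percentile itself was 729.4 and 734 signal units on the Thoc2 siRNA arrays, 306.6 and 740.2 on the Thoc5 siRNA arrays, and 819.4 and 909.1 on the NT arrays, so Thoc5 replicate 1 was the dimmest array, and the share of spots well above background ran from 56.7% on that array to 79.7% on Thoc2 replicate 1. Thoc2 replicate 1 also had the most spots with outlier flags, 880 against 63 to 155 on the others. Thoc2 replicate 2 shared a slide with NT replicate 1, and Thoc5 replicate 2 shared another with NT replicate 2, while the remaining arrays were alone on theirs. The targeted genes stood below NT on both arrays of their own siRNA: Thoc2 stood at 0.68 and 0.33 on Thoc2 siRNA arrays against 1.32 and 1.43 on NT arrays, and Thoc5 at 0.34 and -0.0054 on Thoc5 siRNA arrays against 1.30 and 1.57 on NT arrays. All 9 embryonic stem cell markers were well above background on all 6 arrays, and so were 4 of 8 fibroblast or feeder markers. The summed level of the stem cell markers (log2) was 9.67 and 9.75 on Thoc2, 9.97 and 9.64 on Thoc5 and 9.97 and 10.04 on NT siRNA arrays, so it lay below NT on both Thoc2 arrays. Its part in the results was not tested. In this sum Dppa5a weighs most, since it ran from 8.95 to 9.4 while the other markers of that list were at 7.62 or lower. The sum is therefore not a reading of the whole list. The summed level of the fibroblast or feeder markers (7 genes) was 3.69 and 3.58 on Thoc2, 3.71 and 3.82 on Thoc5 and 3.85 and 3.47 on NT siRNA arrays. It came almost wholly from Acta2, which ran from 3.25 to 3.74, while the other markers of that list were at 0.63 or lower.

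No heat shock gene passed the test in any comparison. The test was a limma fit to all 6 arrays, two-sided, with Benjamini-Hochberg adjustment over 19369 genes and a threshold of 0.05. With Thoc2 siRNA 0 of 9 measured heat shock genes passed, with adjusted p between 0.497 and 0.994, where 0% of all genes passed. With Thoc5 siRNA 0 of 9 passed, with adjusted p between 0.262 and 0.997, where again 0% of all genes passed. At an unadjusted p under 0.05 there were 0 heat shock genes in either comparison, while 7.87% of all genes were higher and 6.65% lower with Thoc2 siRNA, and 7.54% higher and 12% lower with Thoc5 siRNA. The intervals of the 9 genes allow differences from -0.68 to 1.01 with Thoc2 siRNA and from -1.07 to 1.01 with Thoc5 siRNA on the log2 scale (95% intervals), so a 2-fold change in some of them could not be told from none. An exact permutation test was not used, because with 2 arrays in each group its smallest p is 0.333.

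**Figure D1:**
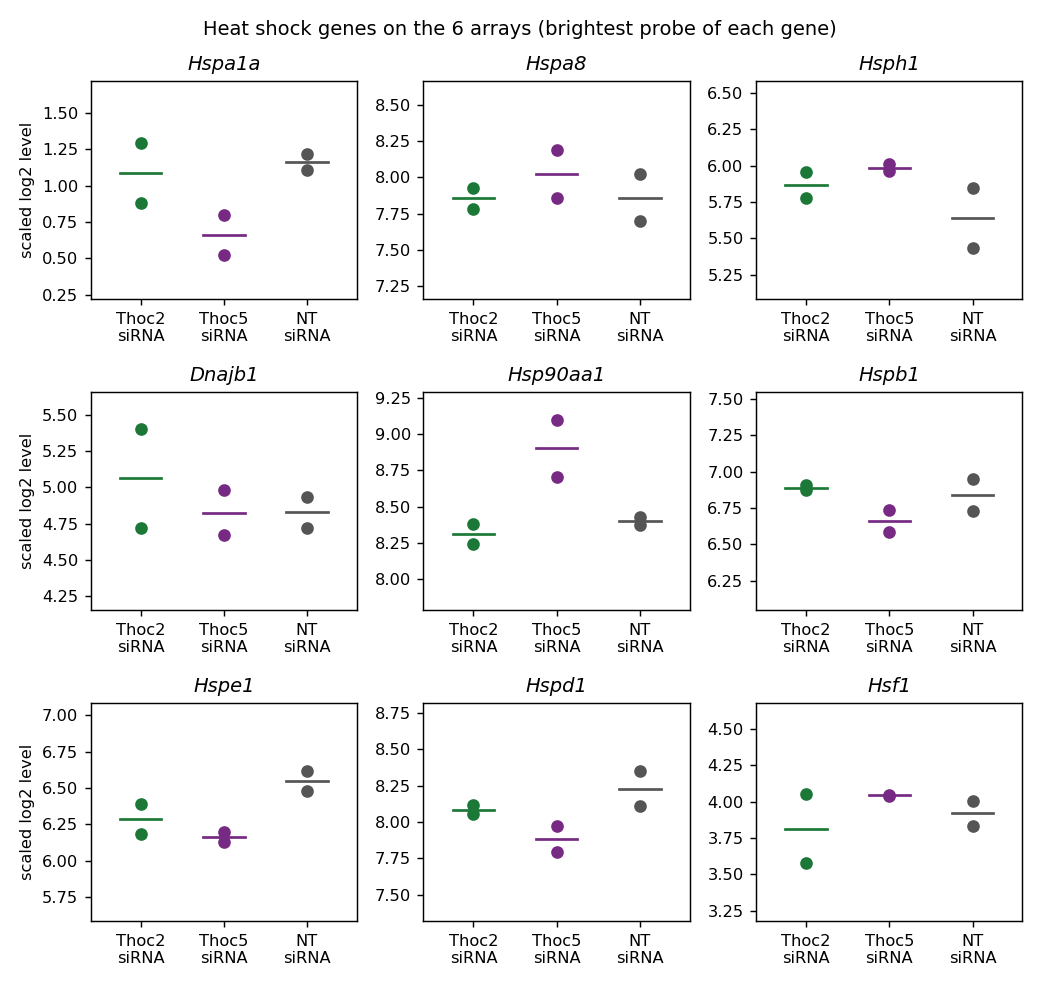
Scaled log2 level (y axis) of each of the 9 measured heat shock genes on the 2 arrays of each group, with points for arrays and bars for group means; every panel spans the same number of log2 units. Hsp90aa1 lies highest on the Thoc5 siRNA arrays (8.70 and 9.10) and Hspa1a lowest on them (0.53 and 0.80), while Hspa8 and Dnajb1 overlap between all groups.

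The inducible Hsp70 gene Hspa1a, as read by the probe nearest its 3′ end, stood at 0.88 and 1.29 on the Thoc2 siRNA arrays, at 0.53 and 0.80 on the Thoc5 siRNA arrays and at 1.10 and 1.22 on the NT arrays. Both Thoc5 siRNA arrays were below every other array, and the Thoc2 siRNA arrays lay on either side of NT. The difference was -0.50 ± 0.21 with Thoc5 siRNA (SE of the limma fit; 70.6% of the NT level, adjusted p = 0.297) and -0.077 ± 0.21 with Thoc2 siRNA (adjusted p = 0.88). Within the slide that holds both groups the differences were -0.43 with Thoc5 siRNA and 0.19 with Thoc2 siRNA. The Thoc2 siRNA value also turned to 0.13 without Thoc2 replicate 1.

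The 4 Hspa1a probes did not give one answer. The overlapping probe A_51_P117952 stood at 0.45 and 0.95 on Thoc2 siRNA arrays, 0.37 and 0.39 on Thoc5 siRNA arrays and 0.96 and 0.99 on NT arrays, a pattern like that of its neighbour. Fitted probe by probe, its difference with Thoc5 siRNA was -0.60 ± 0.21 (unadjusted p = 0.0427, adjusted p = 0.236 over 28451 probes in limma). The first shared probe of Hspa1a and Hspa1b downstream, A_52_P52803, stood at -1.23 and -0.70 on Thoc2 siRNA arrays, -0.98 and -0.95 on Thoc5 siRNA arrays and -0.90 and -0.84 on NT arrays, a difference of -0.095 ± 0.22 with Thoc5 siRNA (adjusted p = 0.852). The shared probe nearest the 5′ end, A_52_P304902, was the dimmest of the 4 and stood higher with both siRNAs: -2.85 and -4.02 on Thoc2 siRNA arrays, -3.47 and -3.55 on Thoc5 siRNA arrays and -4.26 and -4.10 on NT arrays. Its differences were 0.74 ± 0.41 with Thoc2 siRNA (adjusted p = 0.456) and 0.67 ± 0.41 with Thoc5 siRNA (adjusted p = 0.445), the first resting mostly on Thoc2 replicate 1. Before scaling, the signal of this probe was low on every array. It was 101.3 and 45.27 on Thoc2, 27.7 and 63.34 on Thoc5 and 42.86 and 53.07 on NT siRNA arrays. Thoc5 replicate 1 was thus below both NT arrays before scaling and above them only after it. Averaged over its 4 probes, with the dim one at equal weight, Hspa1a differed by -0.13 with Thoc5 siRNA (adjusted p = 0.685) and by 0.074 with Thoc2 siRNA (adjusted p = 0.824). The place of Hspa1a among these genes thus depends on which probe is read. Hspa1b was measured by no probe of its own, and the shared probes cannot tell it from Hspa1a.

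**Figure D2:**
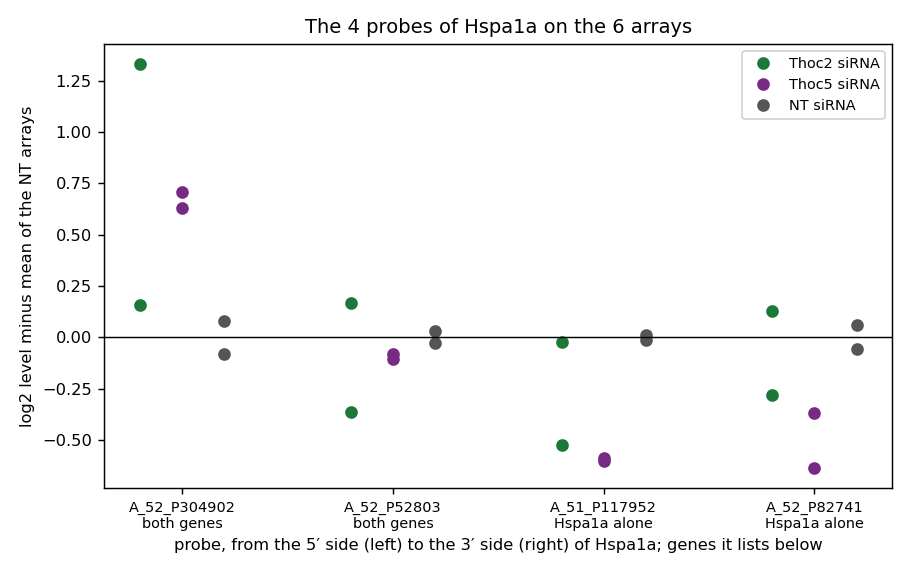
Level of each Hspa1a probe on each array minus the mean of the NT arrays for that probe (y axis, log2), with the probes ordered from the 5′ side on the left to the 3′ side on the right and the genes listed by each probe below its name. The Thoc5 siRNA arrays lie above NT for the 5′ probe, which is dim, close to NT for the second and below NT for the overlapping pair at the 3′ side.

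Hspa8 encodes the constitutive Hsp70 of the cytosol. It stood at 7.79 and 7.93 on Thoc2 siRNA arrays, 8.19 and 7.86 on Thoc5 siRNA arrays and 7.70 and 8.02 on NT arrays, and the groups overlapped. Its differences were -0.0049 ± 0.21 with Thoc2 siRNA (adjusted p = 0.994) and 0.16 ± 0.21 with Thoc5 siRNA (adjusted p = 0.729); neither sign was stable, the second being -0.17 within the slide that holds both groups and -0.16 after normexp background correction. A second Hspa8 probe gave -0.0044 and 0.28 for the same 2 differences. The files place both probes on chromosome 5 of mm7, which is not the chromosome of the RefSeq gene, so their position is left as the files have it.

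Hsph1, the Hsp110 exchange factor of the Hsp70 cycle, stood at 5.78 and 5.96 on Thoc2 siRNA arrays, 6.01 and 5.96 on Thoc5 siRNA arrays and 5.43 and 5.85 on NT arrays. Both Thoc5 siRNA arrays were above both NT arrays, and the Thoc2 siRNA arrays overlapped NT. The differences were 0.35 ± 0.20 with Thoc5 siRNA (adjusted p = 0.419) and 0.23 ± 0.20 with Thoc2 siRNA (adjusted p = 0.625), but they were -0.026 and -0.063 after normexp background correction. Within slides they were 0.12 with Thoc5 siRNA and 0.53 with Thoc2 siRNA, and without NT replicate 1 they were 0.14 and 0.025.

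Dnajb1, the J protein that starts the Hsp70 cycle during stress, stood at 4.72 and 5.40 on Thoc2 siRNA arrays, 4.98 and 4.67 on Thoc5 siRNA arrays and 4.72 and 4.94 on NT arrays. Only Thoc2 replicate 2 lay apart, above the other 5 arrays. The differences were 0.23 ± 0.29 with Thoc2 siRNA (adjusted p = 0.735) and -0.0023 ± 0.29 with Thoc5 siRNA (adjusted p = 0.997), and the first was -0.11 without Thoc2 replicate 2, -0.17 after normexp and 0.68 within the slide that holds both groups. The second Dnajb1 probe differed by -0.11 ± 0.19 with Thoc2 siRNA (adjusted p = 0.797).

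Hsp90aa1, the stress-inducible cytosolic Hsp90, stood at 8.24 and 8.38 on Thoc2 siRNA arrays, 9.10 and 8.70 on Thoc5 siRNA arrays and 8.37 and 8.43 on NT arrays. Both Thoc5 siRNA arrays were above the other 4. With Thoc5 siRNA the difference from NT was 0.50 ± 0.19 (141% of NT, adjusted p = 0.262), the smallest adjusted p of any heat shock gene against NT, and with Thoc2 siRNA it was -0.091 ± 0.19 (adjusted p = 0.843; 0.007 within its slide). The higher of the Thoc5 siRNA arrays, replicate 1, was the dimmest array overall: without it the difference was 0.30, within the slide of Thoc5 replicate 2 it was 0.28, and after normexp it was 0.17. Between the siRNAs, Thoc5 minus Thoc2, Hsp90aa1 differed by 0.59 ± 0.19 (unadjusted p = 0.0317, adjusted p = 0.521). It was the only one of the 9 genes with an unadjusted p under 0.05 in that comparison, where 2.31% of all genes were higher and 6.71% lower at that p and 0% passed after adjustment.

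Hspb1, a small heat shock protein, stood at 6.87 and 6.91 on Thoc2 siRNA arrays, 6.74 and 6.59 on Thoc5 siRNA arrays and 6.73 and 6.95 on NT arrays. 1 Thoc5 siRNA array lay between the NT arrays and the other below them, and both lay below the Thoc2 siRNA arrays. The differences were 0.051 ± 0.16 with Thoc2 siRNA (adjusted p = 0.894) and -0.18 ± 0.16 with Thoc5 siRNA (adjusted p = 0.616). The second was -0.36 within its slide and -0.55 after normexp, and the first turned to -0.29 after normexp. A second probe named Hspb1 in the files, placed on chromosome 13, did not stand well above background anywhere and was not used; the other 17 probes were well above background on all 6 arrays and none was saturated.

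The chaperonin genes had their lowest group means with Thoc5 siRNA. Hspe1, the co-chaperonin that caps the Hspd1 barrel, stood at 6.18 and 6.39 on Thoc2 siRNA arrays, 6.20 and 6.13 on Thoc5 siRNA arrays and 6.48 and 6.61 on NT arrays. All 4 siRNA arrays of Hspe1 were below both NT arrays. Hspd1 stood at 8.12 and 8.05 on Thoc2 siRNA arrays, 7.97 and 7.80 on Thoc5 siRNA arrays and 8.11 and 8.35 on NT arrays, so that both Thoc5 siRNA arrays were below NT and 1 Thoc2 siRNA array was not.

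The differences of Hspe1 were -0.38 ± 0.16 with Thoc5 siRNA (76.8% of NT, adjusted p = 0.285) and -0.26 ± 0.16 with Thoc2 siRNA (83.5% of NT, adjusted p = 0.497). Those of Hspd1 were -0.34 ± 0.17 with Thoc5 siRNA (78.8% of NT, adjusted p = 0.346) and -0.14 ± 0.17 with Thoc2 siRNA (adjusted p = 0.714). The other Hspd1 probe gave -0.20 ± 0.17 with Thoc5 siRNA (adjusted p = 0.577). These genes, which share the promoter region printed above, both stood highest on NT replicate 2 and lowest on Thoc5 replicate 2, arrays of the same slide, and within that slide the Thoc5 siRNA differences were -0.49 for Hspe1 and -0.55 for Hspd1. Within the slide of the other pair the Thoc2 siRNA differences were -0.085 and -0.056, and without NT replicate 2 that of Hspd1 was -0.023. After normexp they were -0.81 for Hspe1 and -0.77 for Hspd1 with Thoc5 siRNA and -0.89 and -0.75 with Thoc2 siRNA, none past the threshold.

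Hsf1, the heat shock transcription factor, stood at 3.58 and 4.05 on Thoc2 siRNA arrays, 4.04 and 4.05 on Thoc5 siRNA arrays and 4.01 and 3.84 on NT arrays. The 2 Thoc5 siRNA arrays were above NT by less than the 2 NT arrays differed. The differences were -0.11 ± 0.21 with Thoc2 siRNA (adjusted p = 0.836; 0.046 within its slide) and 0.12 ± 0.21 with Thoc5 siRNA (adjusted p = 0.802; -0.062 after normexp). Its 3 probes disagreed for Thoc2 siRNA, since A_51_P102943 gave 0.53 ± 0.20 (unadjusted p = 0.0479, adjusted p = 0.327) and A_52_P647582 gave 0.21 ± 0.18 (adjusted p = 0.625). The value of -0.11 came from A_52_P487647, the brightest of them. Unlike the other probes it lists no RefSeq transcript and was named by its symbol only.

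**Figure D3:**
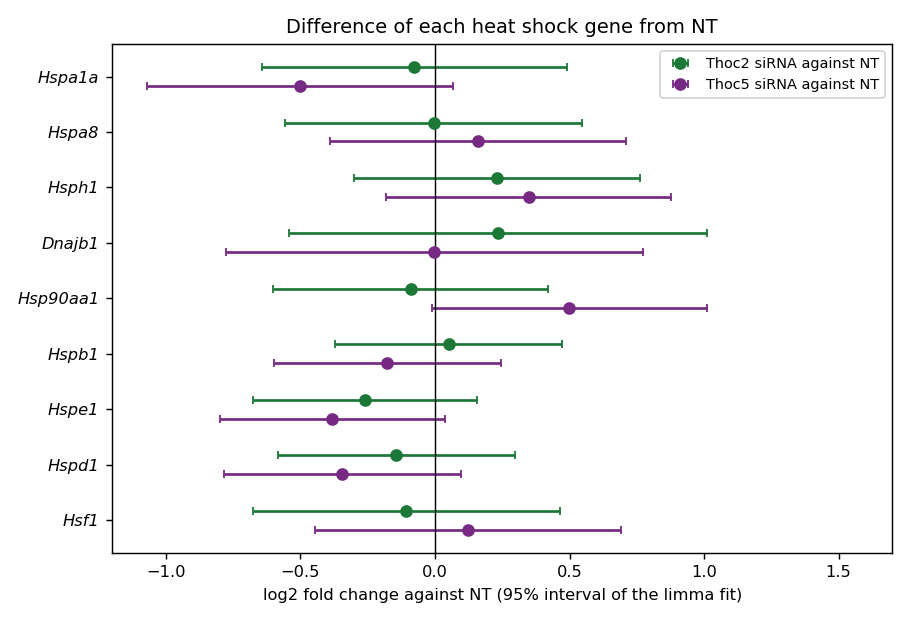
Log2 fold change of each heat shock gene against NT (x axis), with points for the estimate and bars for the 95% interval of the limma fit, Thoc2 siRNA above Thoc5 siRNA in each row. All 18 intervals include 0; the estimates with Thoc5 siRNA run from -0.50 for Hspa1a to 0.50 for Hsp90aa1.

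Side by side, the heat shock genes lay on both sides of NT in the main fit and almost wholly below it after normexp. In the main fit, with Thoc2 siRNA 3 of 9 were above NT and 6 below, with a median difference of -0.077 beside 0.054 over all genes. With Thoc5 siRNA 4 were above and 5 below, with a median of -0.002 beside -0.082 over all genes. These comparisons share the NT arrays. After normexp 0 of 9 were above NT and 9 below with Thoc2 siRNA (median -0.286 beside 0.287 over all genes). With Thoc5 siRNA 1 was above (Hsp90aa1) and 8 below (median -0.329 beside 0.249), none past the threshold. The share of all genes below NT was not counted after normexp. Subunits of the TRiC chaperonin, described below, also lay mostly below NT then (medians -0.562 and -0.444), so this was not particular to the heat shock genes. With quantile normalization, which keeps the processed signal, 4 heat shock genes were above and 5 below with Thoc2 siRNA, and 5 above and 4 below with Thoc5 siRNA. Groups that did not overlap were counted as a description: with Thoc2 siRNA 0 of 9 genes lay wholly above NT, where 25% of all genes did, and 1 wholly below (Hspe1), where 21.2% did. With Thoc5 siRNA 3 lay wholly above NT (Hsph1, Hsp90aa1 and Hsf1, of which Hsph1 and Hsf1 had the other sign after normexp), where 21.8% of all genes did, and 3 wholly below (Hspa1a, Hspe1 and Hspd1), where 30.8% did. Between the siRNAs, Thoc5 minus Thoc2, 0 of 9 passed; 5 of 9 were below 0, where 63.6% of all genes were, 2 lay wholly above (Hsph1 and Hsp90aa1), where 13.9% of all genes did, and 3 wholly below (Hspa1a, Hspb1 and Hspd1), where 30.9% did. For the mean of both siRNAs against NT 0 of 9 passed, where 0% of all genes did, and 0 of 9 had an unadjusted p under 0.05, where 8.79% of all genes were higher and 10.4% lower at that p. In that comparison 4 of 9 were below 0, where 51% of all genes were, and Hspe1 was the only one wholly below NT, where 16.4% of all genes were; its difference was -0.32 ± 0.14 (adjusted p = 0.301).

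The wider chaperone system was read through 54 partner genes in 9 classes, all of them measured. None passed the test in either comparison with NT, where 0% of all genes did. With Thoc2 siRNA 26 were above NT and 28 below (median -0.025), where 45.1% of all genes were below (median 0.054). With Thoc5 siRNA 24 were above and 30 below (median -0.071), where 56.5% of all genes were below (median -0.082). At an unadjusted limma p under 0.05, 1 was higher and 1 lower with Thoc2 siRNA, where 7.87% and 6.65% of all genes were. With Thoc5 siRNA 1 was higher and 4 lower at that p, where 7.54% and 12% of all genes were. The same 5 partners had the smallest p in both comparisons, which share the NT arrays. Hspa2, an Hsp70 best known from the testis, stood at -2.18 and -2.28 on Thoc2 siRNA arrays, -2.18 and -1.69 on Thoc5 siRNA arrays and -1.17 and -1.34 on NT arrays. All 4 siRNA arrays of Hspa2 were below NT, by -0.98 ± 0.22 with Thoc2 siRNA (50.8% of NT, unadjusted p = 0.00872, adjusted p = 0.233) and by -0.69 ± 0.22 with Thoc5 siRNA (62.2% of NT, unadjusted p = 0.0305, adjusted p = 0.209).

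Bag3, a co-chaperone that links Hsp70 to autophagy and is itself a target of Hsf1, stood at 2.14 and 2.18 on Thoc2 siRNA arrays, 2.05 and 1.89 on Thoc5 siRNA arrays and 2.49 and 2.56 on NT arrays. Its differences were -0.36 ± 0.14 with Thoc2 siRNA (adjusted p = 0.356) and -0.55 ± 0.14 with Thoc5 siRNA (unadjusted p = 0.0145, adjusted p = 0.159). Dnajb2, a J protein that passes clients to the proteasome, stood at -0.13 and -0.29 on Thoc2 siRNA arrays, -0.12 and -0.19 on Thoc5 siRNA arrays and -0.59 and -0.63 on NT arrays. It lay above NT on all 4 siRNA arrays, by 0.40 ± 0.14 with Thoc2 siRNA (unadjusted p = 0.0432, adjusted p = 0.328) and 0.46 ± 0.14 with Thoc5 siRNA (unadjusted p = 0.0286, adjusted p = 0.204). Fkbp4, an Hsp90 co-chaperone of steroid receptors, was at 3.94 and 4.17 on Thoc2 siRNA arrays, 4.12 and 3.85 on Thoc5 siRNA arrays and 4.53 and 4.46 on NT arrays, a difference of -0.51 ± 0.18 with Thoc5 siRNA (adjusted p = 0.234) and -0.44 ± 0.18 with Thoc2 siRNA (adjusted p = 0.364). Hspa9, the Hsp70 of the mitochondrial matrix and so a neighbour of Hspd1 and Hspe1, stood at 6.11 and 5.84 on Thoc2 siRNA arrays, 5.95 and 5.78 on Thoc5 siRNA arrays and 6.30 and 6.55 on NT arrays. It differed by -0.55 ± 0.19 with Thoc5 siRNA (68.2% of NT, adjusted p = 0.222) and by -0.45 ± 0.19 with Thoc2 siRNA (adjusted p = 0.374). Hspa9 was below NT on all 4 siRNA arrays, as were 10 of the 54 partners in all, Bag3, Fkbp4 and Hspa2 among them, where 16.4% of all genes were. Above NT on all 4 lay 6 of the 54, Dnajb2 among them, where 13.9% of all genes did.

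By class, the TRiC chaperonin, which folds actin and tubulin in the cytosol, had 6 of 8 subunits below NT in each comparison, where 45.1% of all genes were below NT with Thoc2 siRNA and 56.5% with Thoc5 siRNA, and 4 of 8 wholly below NT in each, where 21.2% of all genes were with Thoc2 siRNA and 30.8% with Thoc5 siRNA. Its median was -0.21 with Thoc2 siRNA and -0.13 with Thoc5 siRNA, beside 0.054 and -0.082 over all genes. With quantile normalization 4 of 8 subunits were below NT with Thoc5 siRNA (median -0.011), and after normexp 7 of 8 were in each comparison (medians -0.56 with Thoc2 siRNA and -0.44 with Thoc5 siRNA). The 13 genes of Hsp90 and its co-chaperones were split, 6 above and 7 below NT in each comparison. The 7 J proteins were 5 above and 2 below in each. Class medians were also below 0 with both siRNAs for cytosolic Hsp70 and Hsp110 (-0.167 with Thoc2, -0.357 with Thoc5 siRNA). So were those of nucleotide exchange and Bag genes (-0.187 and -0.068) and of Hsp90 and its co-chaperones (-0.023 and -0.075). Medians of J proteins (0.05 and 0.061) and other heat shock factors (0.314 and 0.204) were above 0. Those of small heat shock proteins and mitochondrial partners changed sign between the siRNAs.

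**Figure D4:**
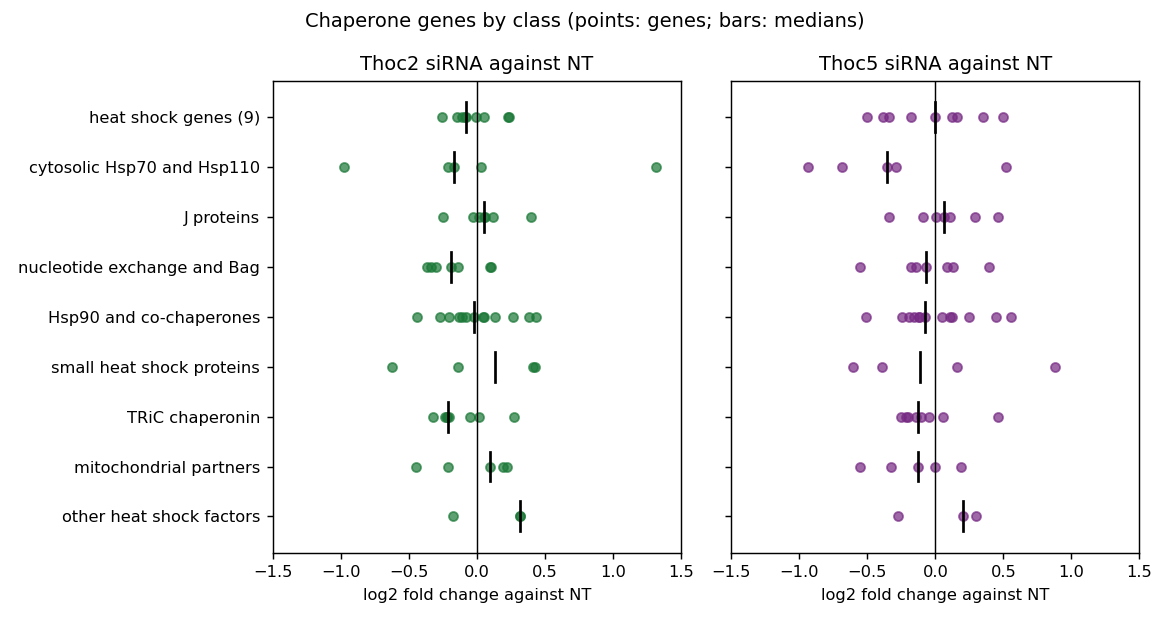
Log2 fold change against NT (x axis) of the 9 measured heat shock genes and of partner genes in 8 of the 9 classes, Thoc2 siRNA on the left and Thoc5 siRNA on the right, with points for genes and black bars for class medians. The medians of the TRiC subunits lie below 0 in both panels. So do those of cytosolic Hsp70 and Hsp110 and of nucleotide exchange and Bag genes. Medians of Hsp90 and its co-chaperones lie slightly below 0 in both (-0.023 with Thoc2, -0.075 with Thoc5 siRNA). The same holds for the heat shock genes (-0.077 and -0.002). Over all genes the medians were 0.054 and -0.082. No gene shown passed the test.

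The genes whose levels over the 6 arrays were most like those of Hspa1a were Ddx46 (Pearson r = 0.996), Tnks2 (r = 0.993) and Arid5a (r = 0.990), out of 18962 genes searched. Hspa1a was read here by its brightest probe alone, A_52_P82741, and its other probes, which gave other patterns in part, were not searched. They are the closest of a large number of genes over only 6 arrays, with 3 genes above 0.99 in all, and the likeness was not tested.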

How the data were processed

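RNA levels were read from 6 scanner files, whose processed signal intensity was background-subtracted and detrended within each array, per the file headers. These name Feature Extraction 9.5.3.1 and build mm7, whereas version 11.0 of Agilent Feature Extraction stands in the submitters' processing notes. The log2 values of the deposited series table, rank for rank the same as the processed signal (Spearman correlation 1) with a median of 5.95 on every array, were used only as an alternative. How the authors scaled them is not given in the sources used here. With equal medians they do not show the brightness each array had before scaling. The 0 or 1 flags for background, saturation and outliers are Feature Extraction's own, as deposited.

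Levels are log2 processed signal minus the array's 75th percentile. Control spots and outlier spots were left out, replicate spots were averaged per probe, and probes had to reach well above background on all arrays of 1 group or more. Genes were named through accessions or symbols in a RefSeq table of assembly GRCm38.p6, used for names and promoter windows only. Fits used limma 3.58.1 in R 4.3.3 (3 residual and 1.48 prior degrees of freedom), with the package data.table (version 1.17.8) to read files, and were tested on simulated data. The precision is limited by 2 arrays per group. Named genes are all 10 members with every probe, the siRNA targets, the 5 partner genes with the smallest p in each siRNA group against NT, and the 3 genes most like Hspa1a. The values of 1 partner class are not reported here beyond the counts over all partners. The members, partner lists and tests were chosen with earlier results of these data known. Alternatives changed the background correction, scaling, filter, probe choice, variance model, slide, replicate block and arrays kept.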

Additional observations from a re-analysis of the deposited data

How the results depend on the processing

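No heat shock gene and no partner gene passed the threshold in any alternative run. The 36 member differences were recomputed under up to 18 alternatives, 630 values in all: 51 had the other sign, 5 of them within a slide (with Thoc2 siRNA, Hspa1a 0.188, Hspa8 0.228, Hsp90aa1 0.007 and Hsf1 0.046; with Thoc5 siRNA, Hspa8 -0.166), and 7 more within-slide values kept their sign but moved by more than the spread between arrays. The limma count of 0 genes past the threshold (2813, 3783, 1748 and 3725 genes at an unadjusted p under 0.05 with Thoc2 siRNA, Thoc5 siRNA, Thoc5 minus Thoc2, and the mean of both) moved under 2 alternatives. With probes well above background on all arrays (15222 genes) it was 507 with Thoc5 siRNA and 453 for the mean; with an intensity trend and robust variances it was 6 with Thoc2 siRNA, 643 with Thoc5 siRNA and 654 for the mean. It was 0 in every other alternative, including each array left out, slide as a random block, every kept probe fitted by itself (chosen after seeing the data) and the replicate block. Same-numbered arrays deviated together with r = -0.2 (Thoc2 and NT), 0.143 (Thoc5 and NT) and 0.218 (Thoc5 and Thoc2). These values cannot tell whether same-numbered arrays shared a batch or culture, which was not tested. The replicate block called 0 genes in each comparison, as the main fit did.

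The sign of these differences turned, and the cause was not tested. After normexp they were, with Thoc2 siRNA, -0.168 for Dnajb1, -0.286 for Hspb1 and -0.063 for Hsph1; with Thoc5 siRNA, -0.062 for Hsf1, -0.157 for Hspa8 and -0.026 for Hsph1; Thoc5 minus Thoc2, 0.086 for Hspe1; for the mean, -0.248 for Dnajb1, -0.195 for Hsf1, -0.048 for Hsp90aa1, -0.295 for Hspa8 and -0.044 for Hsph1. Normexp also moved the median of all genes to 0.287 with Thoc2 and 0.249 with Thoc5 siRNA, and that of the 9 heat shock genes to -0.286 and -0.329. Relative to all genes these genes then lay lower than in the main scaling, as did the TRiC subunits (medians -0.562 and -0.444). Hspa8 with Thoc2 siRNA, Dnajb1 with Thoc5 siRNA and Hspb1 for the mean were 0.134, 0.125 and 0.05 with quantile normalization, 0.052, 0.077 and 0.017 with cyclic loess, and 0.148, 0.128 and 0.053 in the deposited values; the first pair were 0.024 and 0.039 with the percentile over probes detected everywhere. As means of the kept probes, Hsf1 was 0.208 and Hspa1a 0.074 with Thoc2 siRNA, Dnajb1 0.003 with Thoc5 siRNA and Hsf1 -0.038 for Thoc5 minus Thoc2. With slide as a random block Hspa8 was 0.01 with Thoc2 siRNA.

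Leaving out 1 array at a time gave, with Thoc2 siRNA, 0.025 to 0.437 for Hsph1, -0.264 to -0.023 for Hspd1, -0.366 to -0.153 for Hspe1, -0.109 to 0.576 for Dnajb1, -0.345 to 0.133 for Hsf1, -0.283 to 0.129 for Hspa1a, -0.166 to 0.157 for Hspa8 and -0.061 to 0.162 for Hspb1; with Thoc5 siRNA, 0.142 to 0.554 for Hsph1, 0.303 to 0.697 for Hsp90aa1, -0.156 to 0.151 for Dnajb1 and -0.004 to 0.324 for Hspa8; for Thoc5 minus Thoc2, -0.578 to 0.106 for Dnajb1 and -0.011 to 0.466 for Hsf1; and for the mean, -0.055 to 0.287 for Dnajb1, -0.112 to 0.127 for Hsf1, -0.084 to 0.239 for Hspa8 and -0.174 to 0.048 for Hspb1. A lone array is then assumed to vary like the other groups.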
